A study of Mus musculus with 18 samples.

Results

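Genes of cholesterol synthesis and sterol control were followed in sorted cells of the mouse mammary gland. The set held 31 genes, chosen by symbol and matched to rows of the deposited table, out of 46257 gene identifiers in all. They were grouped by role: 7 genes of the mevalonate arm, the isoprenoid branch gene Ggps1, 11 genes of the squalene and sterol ring arm, 4 genes of SREBP2 control, 3 genes of sterol transport and esterification, and 5 genes of the LXR receptors and their targets. All 31 reached a value of 10 in 2 or more libraries and were tested.

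RNA was sequenced from ER+ luminal cells, ER- luminal cells and basal cells, each isolated by flow sorting at puberty, adulthood and mid pregnancy. The 9 groups held 2 libraries each, 18 in all. Groups follow the sample titles, as the puberty and pregnancy basal samples carry the cell type label "BC luminal cells". Every group came from mice of the genotype ERrtTA/TetOCre/rosaYFP, so the transactivator, the tetracycline-controlled Cre and the YFP reporter were common to all groups. The sources used here do not give ages, any inducing agent, the sorting gates or whether animals were pooled. Replicates may or may not be separate animals, so p-values cover only the spread between these samples, possibly a technical one.

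Cells make cholesterol from acetyl-CoA. The mevalonate arm builds isoprenoid units, and the squalene and sterol ring arm joins and reshapes them into cholesterol. SREBP2, the product of Srebf2, switches on these enzymes when membrane sterol is low. Scap carries it to the Golgi for cleavage, and the Insig proteins hold it back when sterol is ample. LXR receptors answer surplus oxysterols by raising exporters such as Abca1 and Abcg1 and Mylip, a ligase that removes lipoprotein receptors. In the mammary gland, lipid and cholesterol output grows as secretory cells form milk.

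Values are read counts scaled to about 20000000 per library. A level is given for replicate 1 and then replicate 2 of a group. Log2 fold changes are differences of log2(value + 1) with their standard error (±), and p-values are from limma, adjusted by Benjamini and Hochberg across the 22315 genes tested. A gene is called at an adjusted p under 0.05, and "rose" or "fell" is used of called genes only.

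Some libraries stood apart. In pregnancy ER- luminal replicate 2, 98.6% of the low recovered read counts were even numbers, against 40.8% to 43.04% in the other 17 libraries. Its mitochondrial share was 0.62% against 1.88% to 7.07%, and its 10 highest genes held 2.08% of the signal against 5.43% to 10.94%. Calls in ER- cells at pregnancy, the order of group means and the correlations between genes are given with and without it. Depth was 7674870 to 11292222 reads in genes at puberty. In pregnancy it was 5899432 to 6363533, leaving out pregnancy ER- luminal replicate 2. Recovery gave 5280330 for that library, but its mostly even counts leave its number of separate reads uncertain and possibly lower. Depth was lower in the adult luminal libraries, at 2406221 to 3165232, and unequal between the adult basal libraries, at 7900551 and 4233222. Depth and stage therefore cannot be told apart in luminal cells.

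Averaged over the stages, the defining markers followed the sort. Of ER+ luminal markers, 8 of 8 were higher in ER+ than in ER- cells, and 8 of 8 ER- luminal markers were lower. Of basal markers, 8 of 8 were higher in basal than in luminal cells. Fibroblast markers summed to 11760 and 54614 in puberty ER- cells and 15077 and 50442 in puberty ER+ cells. In pregnancy they summed to 20095 and 17196 in ER- and 65409 and 31944 in ER+ cells. The pregnancy luminal libraries held more basal marker signal than the other luminal libraries. Their basal markers summed to 26018 to 38186, against 880 to 13467 in puberty luminal and 2238 to 4860 in adult luminal libraries. In pregnancy ER+ cells, ER- luminal markers summed to 48143 in replicate 1 and 122005 in replicate 2, against 9885 to 14859 in puberty ER+ cells. In pregnancy ER- cells they summed to 127560 in replicate 1 and 63174 in replicate 2, the library that stood apart. The sums of ER- luminal markers thus overlapped between the luminal populations in pregnancy. Those of ER+ luminal markers did not, at 81490 and 32418 in pregnancy ER+ cells against 6554 and 7682 in pregnancy ER- cells. Adipocyte markers summed to 3118 to 32627 at puberty, 588 to 4935 in adults and 2189 to 3395 in pregnancy. The puberty luminal replicates differed, with 20342 in ER- and 14841 in ER+ replicate 1, against 3876 and 3118 in replicate 2. Endothelial markers there split the same way, at 6873 and 7215 against 1655 and 670. In bulk samples, fewer cells of a type and less RNA per cell cannot be told apart.

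Promoter sequence is shown for 3 enzyme genes, since sterol enzymes are classical SREBP2 targets and Mvd and Hsd17b7 rose in pregnancy in both luminal populations. SREBP2 binds sterol regulatory elements beside NF-Y, which binds CCAAT. The windows lie before the RefSeq start site on GRCm38.p6 and run 5′ to 3′ on the gene's strand. Capitals mark a sterol regulatory element (TCACNCCAC) or a CCAAT box, read on either strand, so that a box on the opposite strand appears as ATTGG. The Hmgcs1 window is chr13:119690169-119690311 (+), the Mvd window chr8:122443423-122443522 (-) and the Hsd17b7 window chr1:169969242-169969377 (-).
Hmgcs1: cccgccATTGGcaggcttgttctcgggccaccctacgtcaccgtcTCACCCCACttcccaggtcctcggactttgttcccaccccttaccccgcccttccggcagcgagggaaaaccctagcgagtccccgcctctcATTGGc
Mvd: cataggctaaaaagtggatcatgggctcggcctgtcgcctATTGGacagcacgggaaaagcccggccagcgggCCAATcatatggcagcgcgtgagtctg
Hsd17b7: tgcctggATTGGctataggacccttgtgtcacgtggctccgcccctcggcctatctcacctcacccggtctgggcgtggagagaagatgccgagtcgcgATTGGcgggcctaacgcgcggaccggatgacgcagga

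Each window holds 2 CCAAT boxes, and the Hmgcs1 window also holds a match to TCACNCCAC, 137 bases before the start. The windows were cut by hand, so the shared count of 2 depends on their ends. In the 250 bases before the start, Hmgcs1 and Hsd17b7 each hold 3 CCAAT boxes and Mvd holds 2. RefSeq promoters were found for 25 of the 31 genes, 32 promoters in all, and the 250 bases before each start were searched on both strands. Fdps, Fdft1, Sqle, Stard4, Npc1 and Abcg1 had no entry. Among promoters of the mevalonate and ring arm enzymes, 14 of 18 (77.8%) held CCAAT, against 33.9% of 32851 promoters of all genes. GGGCGG, the core of an SP1 site, was found in 15 of these 18 (83.3%), against 32.7% of all. TCACNCCAC was found in 1 of the 18, against 1.05% of all promoters. Motif matches were counted separately even where they overlapped, all promoters were not matched for base composition, and a match is a description of letters, not of binding.

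Pregnancy ER- luminal cells had the highest mean for 15 of the 31 genes and for 10 of the 18 enzymes of the mevalonate and ring arms. Over all 22315 genes tested, this group was highest for 19.1%. Without pregnancy ER- luminal replicate 2 it was highest for 13 of the 31 genes and 8 of the 18 enzymes, against 13.3% of all genes. Puberty basal cells had the lowest mean for 12 genes and adult ER+ luminal cells for 9. The share of all genes lowest in these groups was not computed, so these counts are not read as a trait of the set. The ratio of the highest to the lowest group mean ran from 1.5 for Srebf2 to 10.35 for Abcg1. Per kilobase of exon, Srebf2 had the highest mean over the libraries (628.4) and Fdps the lowest (6.0), and Fdps overlaps Gm43738 on the same strand, so that its level is uncertain.

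**Figure D1:**
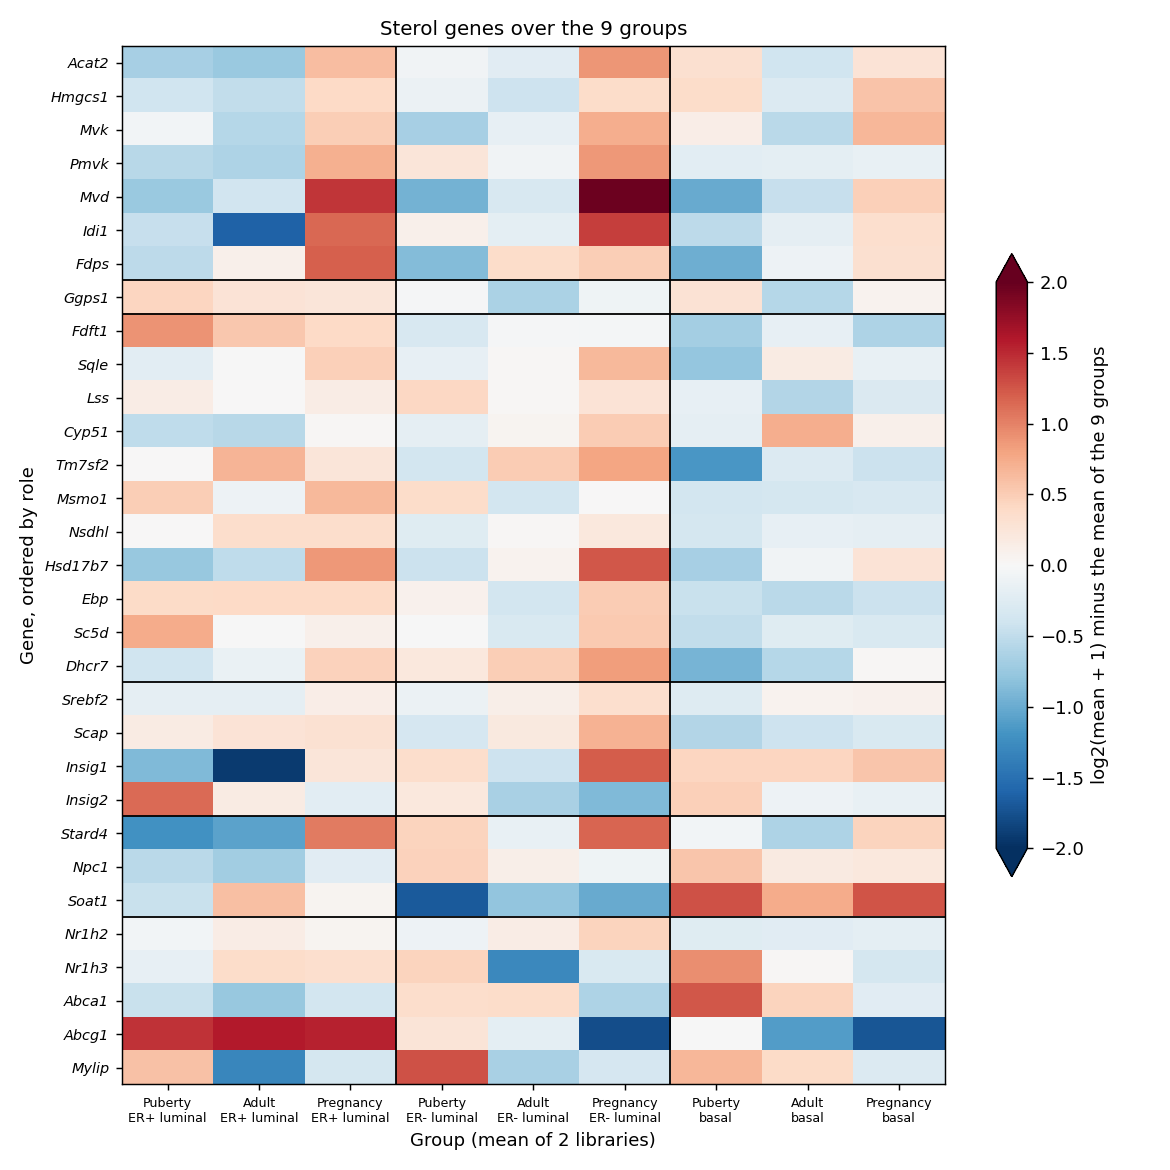
Each cell shows log2(mean + 1) of a gene in a group minus its mean over the 9 groups, with genes in rows ordered by role, lines between roles and populations, and colours saturating at -2 and 2. Mvd, Idi1, Hsd17b7 and Stard4 are above their mean in both pregnancy luminal groups, and Abcg1 is above its mean in all 3 ER+ groups.

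Correlations within the arms were not set beside pairs of all tested genes, so they are not read as a trait of the set. Across the 9 group means on the log2 scale, all 21 pairs among the 7 mevalonate genes had a positive Pearson correlation, with a median of 0.73 and a lowest value of 0.26. In the ring arm 48 of 55 pairs were positive, with a median of 0.49 and a range from -0.44 to 0.87. Mvd and Hsd17b7 had a correlation of 0.96, and Insig1 had one of 0.81 with Idi1 and of -0.45 with Insig2. Without pregnancy ER- luminal replicate 2 the medians were 0.69 in the mevalonate arm, with 21 of 21 pairs positive, and 0.41 in the ring arm, with 48 of 55. The 3 single pairs were then at 0.95, 0.82 and -0.51. These are descriptions over 9 points that share depth differences between stages, and the sources used here give no batches.

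The comparison of mid pregnancy with puberty asks how the pathway differs once the gland builds alveoli. In ER- luminal cells, 8 of the 31 genes rose and 4 fell, with a median log2 fold change of 0.54 against 0.03 over all genes. That is 38.7% of the members, against 14.8% of all genes called either way, and 8.78% called higher. With quantile or median-ratio scaling 6 rose and 5 fell, and without pregnancy ER- luminal replicate 2 there were 3 and 3: Mvd, Hsd17b7 and Scap rose, and Insig2, Abcg1 and Mylip fell. In ER+ luminal cells, 6 rose and 3 fell (29.0% against 13.1% of all genes either way and 7.34% higher), with a median of 0.34 against 0.13. Mvd, Hsd17b7, Stard4 and Insig2 kept the ER+ call in all 24 alternatives run. In basal cells none was called, against 2.07% of all genes, although 12 had an unadjusted p under 0.05 in limma and edgeR on recovered reads called 3. All 7 mevalonate genes had a positive log2 fold change in both luminal populations, with medians of 1.28 in ER+ and 1.32 in ER- cells. Of them 3 passed the test in ER+ cells and 2 in ER- cells.

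Mvd, which decarboxylates mevalonate diphosphate to the basic isoprenoid unit, had the largest change in ER- cells (chromosome 8, 122433601 to 122443422). It stood at 56 and 46 in puberty ER- luminal cells, 89 and 69 in adult ones and 307 and 470 in pregnant ones. In ER+ luminal cells it stood at 67 and 50, then 94 and 58, then 219 and 320. Basal cells had 53 and 44, then 78 and 66, then 89 and 186. All 4 pregnancy luminal libraries lay above every other library. The rise over puberty was 7.62-fold in ER- cells (2.88 ± 0.42, adjusted p = 0.00051) and 4.61-fold in ER+ cells (2.17 ± 0.42, adjusted p = 0.00269). In basal cells the difference was 1.40 ± 0.42 and did not pass (adjusted p = 0.11), whereas edgeR called it (1.51, adjusted p = 0.0462). Without pregnancy ER- luminal replicate 2 the ER- rise was 2.57 (adjusted p = 0.0138). These levels rest on few reads, from 7 in adult ER+ replicate 2 to 125 recovered in pregnancy ER- replicate 2, where even counts leave the number uncertain.

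Hsd17b7, a ketosteroid reductase of the ring arm that also acts on estrone, showed the same order (chromosome 1, 169949535 to 169969241). Its level was 281 and 279 in puberty ER- luminal cells and 747 and 1037 in pregnant ones, with 450 and 339 in adults. In ER+ luminal cells it was 225 and 220 at puberty, 350 and 182 in adults and 674 and 698 in pregnancy. Basal cells had 248 and 230, then 440 and 277, then 455 and 454. The pregnancy luminal libraries again lay above all others. The rise over puberty was 1.65 ± 0.30 in ER- cells (adjusted p = 0.00218) and 1.62 ± 0.30 in ER+ cells (adjusted p = 0.00183), and the ER- rise without the library that stood apart was 1.41 (adjusted p = 0.0411).

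Further enzymes passed the test in 1 or both luminal populations. In ER+ cells, Acat2, the thiolase that opens the arm, rose 2.44-fold, from 159 and 158 to 437 and 336 (1.27 ± 0.38, adjusted p = 0.038). Pmvk, phosphomevalonate kinase, rose from 128 and 88 to 228 and 294 (1.28 ± 0.40, adjusted p = 0.0435). Of 24 alternatives, these ER+ calls were lost in 7 for Acat2 and in 12 for Pmvk. Both calls were lost when any library of the 2 groups compared was left out. In ER- cells, mevalonate kinase Mvk rose from 91 and 51 to 162 and 211 (1.43 ± 0.43, adjusted p = 0.0374). Tm7sf2, a sterol reductase gene that overlaps Vps51 on the same strand, rose in ER- cells from 95 and 86 to 206 and 200 (1.16 ± 0.30, adjusted p = 0.0189). Sqle, squalene epoxidase and a control point of the ring arm, rose in both, by 0.68 ± 0.21 in ER+ and 0.82 ± 0.21 in ER- cells. The ER+ call of Sqle was lost in 18 of 24 alternatives, with adjusted p up to 0.214, and the ER- call in 5 of 24. None of these 3 ER- rises (Mvk, Tm7sf2 and Sqle) passed without pregnancy ER- luminal replicate 2, where they were at 1.24, 1.18 and 0.85. Tm7sf2 lost its call when any library of the 2 groups compared was left out. Mvk and Sqle lost theirs for each of them except puberty ER- luminal replicate 1. The test of a difference between the 2 luminal populations was passed by Sc5d alone among the 31 genes, so no other member is shown to respond differently in them.

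**Figure D2:**
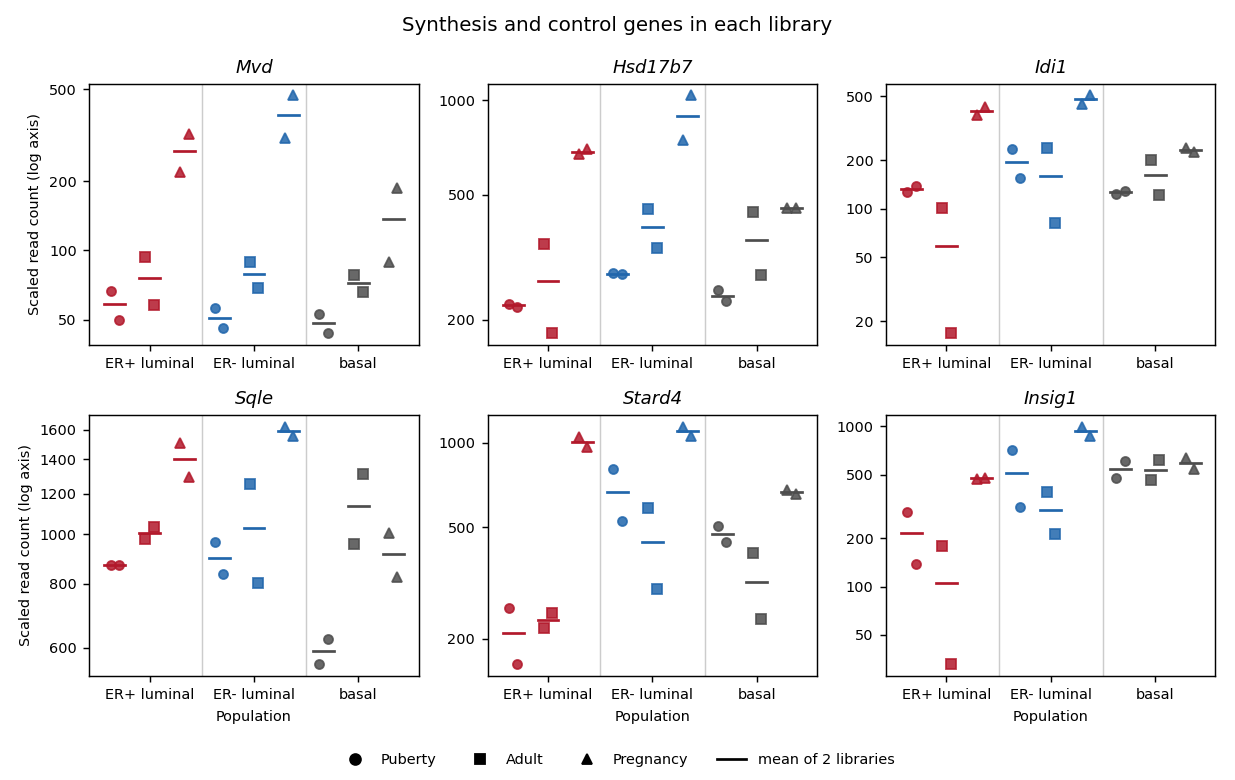
Each point is 1 library and each bar the mean of 2, as scaled read counts on log axes, by population (colour) and stage (symbol). The triangles of the pregnancy luminal libraries lie highest for Mvd, Hsd17b7, Idi1 and Stard4, and adult ER+ luminal replicate 2 lies lowest for Idi1 and Insig1.

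Sc5d, which introduces the C5 double bond of the sterol ring, went the other way in ER+ cells (chromosome 9, 42251595 to 42264256). Its level was 1426 and 1418 in puberty ER+ luminal cells, 776 and 908 in adults and 923 and 901 in pregnancy. In ER- cells it was 882 and 809, then 791 and 589, then 1138 and 1303. Puberty ER+ libraries were above all others. Sc5d fell in ER+ cells by 0.64 ± 0.19 on the log2 scale (adjusted p = 0.0368), while the ER- difference of 0.53 ± 0.19 did not pass (adjusted p = 0.0755). The difference of the 2 changes was -1.17 ± 0.27 (adjusted p = 0.0335), against 2.31% of all genes called in this test. The call was lost in 9 of 24 alternatives, each of which left out 1 library, pregnancy ER- luminal replicate 2 among them. Of the libraries compared, only pregnancy ER- luminal replicate 1 could be left out without losing it.

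Among the control genes, Insig2 fell in pregnancy in both luminal populations, while Srebf2 and Scap rose in ER- cells. Insig2, a retention factor whose transcription is not driven by SREBP2 (chromosome 1, 121304353 to 121332589), stood at 1405 and 1622 in puberty ER+ luminal cells, 745 and 792 in adults and 652 and 543 in pregnancy. In ER- luminal cells it stood at 777 and 820, then 375 and 502, then 276 and 470. Basal cells had 893 and 1026, then 563 and 722, then 666 and 573. Puberty libraries lay above adult and pregnancy libraries of the same population in all 3 populations. The fall from puberty to pregnancy was -1.34 ± 0.24 in ER+ cells (adjusted p = 0.00154) and -1.15 ± 0.24 in ER- cells (adjusted p = 0.00594), and the basal difference of -0.63 ± 0.24 did not pass (adjusted p = 0.235). Scap, the sterol sensor that escorts SREBP2, rose in ER- cells from 1462 and 1302 to 2413 and 3267 (2.05-fold, 1.02 ± 0.18, adjusted p = 0.00158; 0.81 and adjusted p = 0.0298 without pregnancy ER- luminal replicate 2). Srebf2 rose 1.36-fold in these cells, from 4037 and 4210 to 5501 and 5749 (0.45 ± 0.13, adjusted p = 0.0267). Without pregnancy ER- luminal replicate 2 its difference was 0.42. The Srebf2 call was lost when any library of the 2 groups compared was left out, and with median-ratio scaling or edgeR.

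Insig1, itself an SREBP2 target and the other retention factor, was highest in pregnancy ER- luminal cells at 996 and 872. Its puberty replicates there were 707 and 314, so the spread was wide and the pregnancy change was not called. Stard4, which carries cholesterol between membranes, rose 4.79-fold in ER+ luminal cells (chromosome 18, 33199355 to 33213862). It stood at 258 and 163 at puberty, 218 and 248 in adults and 1051 and 966 in pregnancy (pregnancy against puberty 2.29 ± 0.33, adjusted p = 0.000265). In ER- cells it stood at 808 and 527, then 587 and 301, then 1141 and 1059, and the pregnancy difference from puberty of 0.75 ± 0.33 did not pass (adjusted p = 0.137). The difference between these 2 changes did not pass either (1.54 ± 0.46, adjusted p = 0.107). Npc1, the lysosomal cholesterol exporter, fell in ER- cells from 2994 and 2893 to 1881 and 2148 (-0.55 ± 0.16, adjusted p = 0.0302). Without pregnancy ER- luminal replicate 2 its difference was -0.65. The Npc1 call was lost when any library of the 2 groups compared was left out. Npc1 overlaps Rmc1 on the opposite strand, and the sources used here do not give the strand use of the counting.

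The LXR targets were lower in pregnancy than at puberty where they were called. Abcg1, a sterol exporter gene (chromosome 17, 31057675 to 31117988), stood at 677 and 413 in puberty ER- luminal cells, 260 and 533 in adults and 112 and 151 in pregnancy. In ER+ luminal cells it stood at 1344 and 1125, then 1071 and 1650, then 1881 and 759. Basal cells had 364 and 542, then 201 and 216, then 132 and 143. Pregnancy values were low in ER- and basal cells and spread widely in ER+ cells. Abcg1 fell in ER- cells (-2.02 ± 0.42, adjusted p = 0.00593; -2.23 and adjusted p = 0.0308 without pregnancy ER- luminal replicate 2), and lost the call without puberty ER- luminal replicate 1 (adjusted p = 0.0537). In basal cells the difference of -1.69 ± 0.42 lay just outside the threshold (adjusted p = 0.0528).

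Mylip, the LXR-induced ligase that removes lipoprotein receptors (chromosome 13, 45389742 to 45412022), was at 1986 and 1840 in puberty ER- luminal cells, 444 and 564 in adults and 569 and 680 in pregnancy. In ER+ luminal cells it was at 1211 and 1154, then 218 and 421, then 674 and 572. Basal cells had 1145 and 1373, then 807 and 1257, then 682 and 633. Luminal libraries at puberty lay above all other luminal libraries. From puberty to pregnancy it fell by 1.62 ± 0.27 on the log2 scale in ER- cells (adjusted p = 0.00133) and by 0.93 ± 0.27 in ER+ cells (adjusted p = 0.034). The ER+ call was lost when any library of the 2 ER+ groups compared was left out. The ER- fall without pregnancy ER- luminal replicate 2 was -1.75 (adjusted p = 0.0124).

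Abca1, the main exporter to apolipoprotein A-I (chromosome 4, 53030787 to 53159895), was at 11210 and 9980 in puberty basal cells, 5142 and 7088 in adults and 3429 and 4189 in pregnancy. In ER- luminal cells it was at 6090 and 5357, then 3899 and 7631, then 2342 and 3492. In ER+ cells it was at 4169 and 2421, then 1924 and 3365, then 3839 and 3139. The basal libraries of each stage did not overlap, but the pregnancy difference from puberty of -1.48 ± 0.36 did not pass in limma (adjusted p = 0.0603). edgeR called it (-1.47, adjusted p = 0.0355). Of the receptors, Nr1h2 rose in ER- cells from 1578 and 1591 to 1959 and 2678 (0.53 ± 0.15, adjusted p = 0.0296), while the low Nr1h3 was not called in any comparison. Without pregnancy ER- luminal replicate 2 the Nr1h2 difference was 0.31. Of the libraries compared, only pregnancy ER- luminal replicate 1 could be left out without losing the Nr1h2 call.

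Adipocyte markers fell alongside these genes, 5 of 8 from puberty to pregnancy in each of the 3 populations. Immune cell markers, 4 of 8, rose in ER- cells over the same interval. They summed to 1524 to 2117 at puberty and 8047 to 8595 in pregnancy. Basal markers rose in the luminal populations, 5 of 8 in ER+ and 4 of 8 in ER- cells, and 4 of 8 ER- luminal markers rose in ER+ cells. ER+ luminal markers fell in ER+ cells, 2 of 8, with sums of 174179 to 221057 at puberty and 32418 to 81490 in pregnancy. In ER- cells 1 of 8 ER+ luminal, 1 of 8 ER- luminal and 1 of 6 fibroblast markers fell, and in basal cells 3 of 8 ER- luminal markers rose. The part of these markers in the sterol results was not tested.

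**Figure D3:**
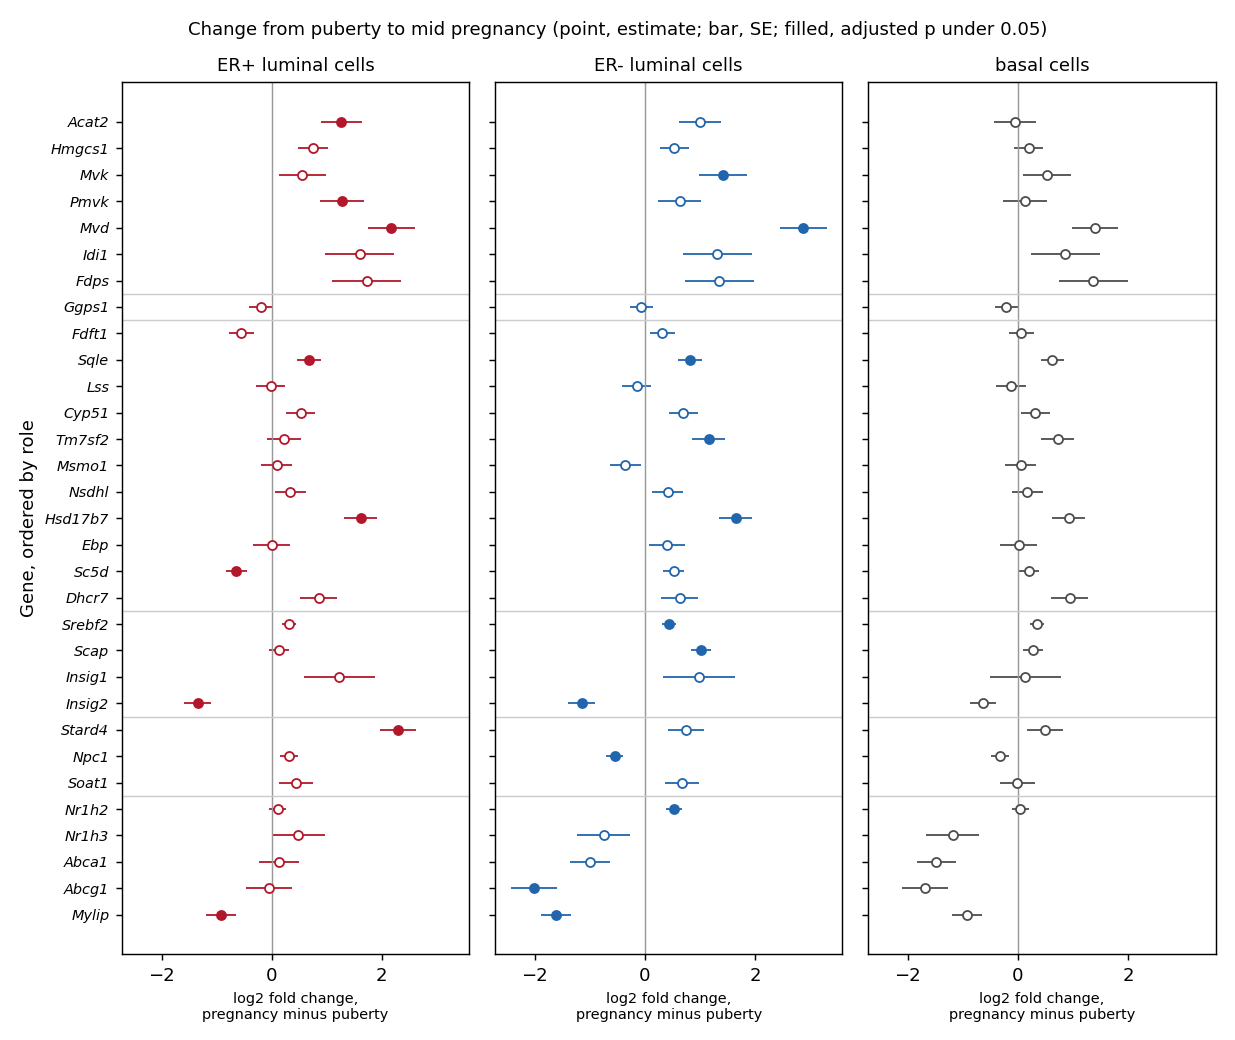
Log2 fold change of mid pregnancy against puberty for the 31 genes (rows, ordered by role) in each population, with bars for the standard error and filled points for an adjusted p under 0.05. The 7 mevalonate genes at the top lie to the right of 0 in both luminal panels, Abcg1 and Mylip lie to the left in ER- and basal cells, and no basal point is filled.

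The contrast of mid pregnancy with adulthood gave mostly rises in luminal cells. In ER+ cells 9 genes rose and none fell (29.0% of members, against 17.9% of all genes called either way and 12.8% called higher). The members' median was 0.47, against 0.21 over all genes. In ER- cells 5 rose and 1 fell (19.4%, against 14.4% either way and 8.89% higher), with a median of 0.47 against 0.09. In basal cells none was called, against 7.26% of all genes, while 6 had an unadjusted p under 0.05 and edgeR called 4. These comparisons share the pregnancy libraries with those above, so their values are given side by side and not as further support.

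In ER+ cells 5 of 7 mevalonate genes rose. Idi1, which isomerises the isoprenoid unit (chromosome 13, 8885501 to 8892451), rose by 3.24 ± 0.63 (adjusted p = 0.00287), and by 1.99 (adjusted p = 0.0184) without adult ER+ luminal replicate 2, where Stard4 was at 2.20. It stood at 128 and 138 in puberty ER+ luminal cells, 101 and 17 in adults and 384 and 427 in pregnancy. In ER- cells it stood at 236 and 155, then 239 and 82, then 451 and 507. Adult replicate 2 was the lower of its pair in both luminal populations, and the ER+ value of 17 is 2 reads. Mvd (1.83 ± 0.42), Acat2 (1.43 ± 0.38), Pmvk (1.37 ± 0.40) and Hmgcs1, the SREBP2 target that makes HMG-CoA (0.86 ± 0.27), rose as well.

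Insig1 rose over adult ER+ cells by 2.60 ± 0.65 (adjusted p = 0.0162), from 179 and 33 to 471 and 478, and the value of 33 is 4 reads. Stard4 rose by 2.11 ± 0.33 (adjusted p = 0.000438) and Hsd17b7 by 1.44 ± 0.30 (adjusted p = 0.00371). Without adult ER+ luminal replicate 2, which was the shallowest library, 3 of the 9 rises passed: Idi1, Stard4 and Mylip. Mylip rose here by 1.03 ± 0.27 (adjusted p = 0.0157), as its adult level lay below its pregnancy level. In ER- cells Mvd (2.26 ± 0.42, adjusted p = 0.00349), Stard4 (1.38 ± 0.33), Hsd17b7 (1.17 ± 0.30), Sc5d (0.83 ± 0.19) and Sqle (0.66 ± 0.21) rose and Abcg1 fell (-1.51 ± 0.42, adjusted p = 0.0273). None of these 6 passed without pregnancy ER- luminal replicate 2, where Mvd was at 1.96 (adjusted p = 0.0547), and Mvd alone passed without adult ER- luminal replicate 2. Endothelial markers, 3 of 6, and 1 of 8 adipocyte markers rose in both luminal populations in this contrast. In ER+ cells 5 of 8 ER- luminal, 5 of 8 basal and 4 of 6 fibroblast markers rose as well. In ER- cells 3 of 8 basal markers rose, while 4 of 8 ER+ luminal markers and 1 of 8 ER- luminal markers fell. The part of these markers was not tested.

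From puberty to adulthood, 3 genes fell in ER+ cells and none rose (9.68%, against 5.73% of all genes), and in ER- cells 1 fell (3.23%, against 3.66%). Mylip had the largest fall in both, -1.96 ± 0.27 in ER+ cells (adjusted p = 0.000419) and -1.93 ± 0.27 in ER- cells (adjusted p = 0.000781). Insig2 (-0.97 ± 0.24, adjusted p = 0.0259) and Sc5d (-0.76 ± 0.19, adjusted p = 0.0274) fell in ER+ cells. Insig2 lost this call when any library of the 2 groups compared was left out. Sc5d lost it for each of them except adult ER+ luminal replicate 2. Adipocyte markers fell too, 6 of 8 in each luminal population, and their part in the fall of Mylip was not tested. In adult luminal cells that marker sum was 588 to 1099.

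In basal cells, 2 genes rose and 1 fell from puberty to adulthood (9.68%, against 9.73% of all genes), a share close to the background. Cyp51, the lanosterol demethylase, went from 538 and 926 to 1339 and 1397 (0.95 ± 0.26, adjusted p = 0.0307) and Sqle from 558 and 623 to 958 and 1313 (0.93 ± 0.21, adjusted p = 0.0139). Ggps1, which makes the geranylgeranyl group that anchors small GTPases, went from 735 and 650 to 357 and 413 (-0.85 ± 0.21, adjusted p = 0.0192). None of the 3 passed without adult basal replicate 2 or without puberty basal replicate 1. The same adult basal libraries held more ER- luminal markers than those at puberty, 6 of 8 called, with sums of 25250 to 50117 against 4662 to 7871. Adipocyte markers fell in the same comparison, 5 of 8, with sums of 16842 to 32627 at puberty and 3534 to 4935 in adults, as did 1 of 6 fibroblast markers. The part of these markers was not tested.

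The ER+ against ER- contrast, averaged over the 3 stages, asks how the hormone-sensing and the secretory-lineage layer differ. Of the 31 genes 5 were higher and 6 lower in ER+ cells (35.5%, against 25.5% of all genes), with a median of -0.10 against -0.11 over all genes. With quantile scaling the split was 6 and 5, and with edgeR 5 and 3. Of the 18 enzymes 3 were called. Abcg1 was 3.65-fold higher in ER+ cells (2.08 ± 0.24, adjusted p = 1.8e-05), and every ER+ library, at 759 or more, lay above every ER- library, at 677 or less. Soat1, which esterifies cholesterol for storage (chromosome 1, 156424525 to 156474331), was also higher (1.18 ± 0.18, adjusted p = 0.000156). Its ER+ levels were 328 and 544 at puberty, 714 and 1073 in adults and 811 and 411 in pregnancy, and its ER- levels 166 and 202, then 307 and 376, then 283 and 301.

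Insig1 and Insig2 lay on opposite sides. Insig1 was lower in ER+ cells (-1.36 ± 0.37, adjusted p = 0.0187) and Insig2 higher (0.82 ± 0.14, adjusted p = 0.000419). Insig1 lost this call in 4 of 26 alternatives, whereas Insig2 kept it in all 26. Insig1 stood at 294 and 138 in puberty ER+ cells, below both puberty ER- values, whereas Insig2 at puberty was higher in both ER+ libraries. Stard4 was lower in ER+ cells (-0.88 ± 0.19, adjusted p = 0.00265), a gap that was wide at puberty and small in pregnancy. Fdft1, which joins farnesyl units into squalene, was higher (0.73 ± 0.13, adjusted p = 0.000737), with 1386 and 1369 at puberty against 707 and 471, and it overlaps Ctsb on the opposite strand. Npc1 was lower (-0.64 ± 0.09, adjusted p = 9.36e-05), with every ER+ library below every ER- library. The other called genes were Ggps1 (higher) and Dhcr7, Mylip and Cyp51 (lower), with differences of 0.47 to 0.57 in size. Of 26 alternatives, Dhcr7 lost the call in 17, Mylip in 14 and Cyp51 in 9, edgeR among them for each, and Ggps1 in 1. Immune cell markers, 5 of 8, were lower in ER+ cells, and their part was not tested.

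**Figure D4:**
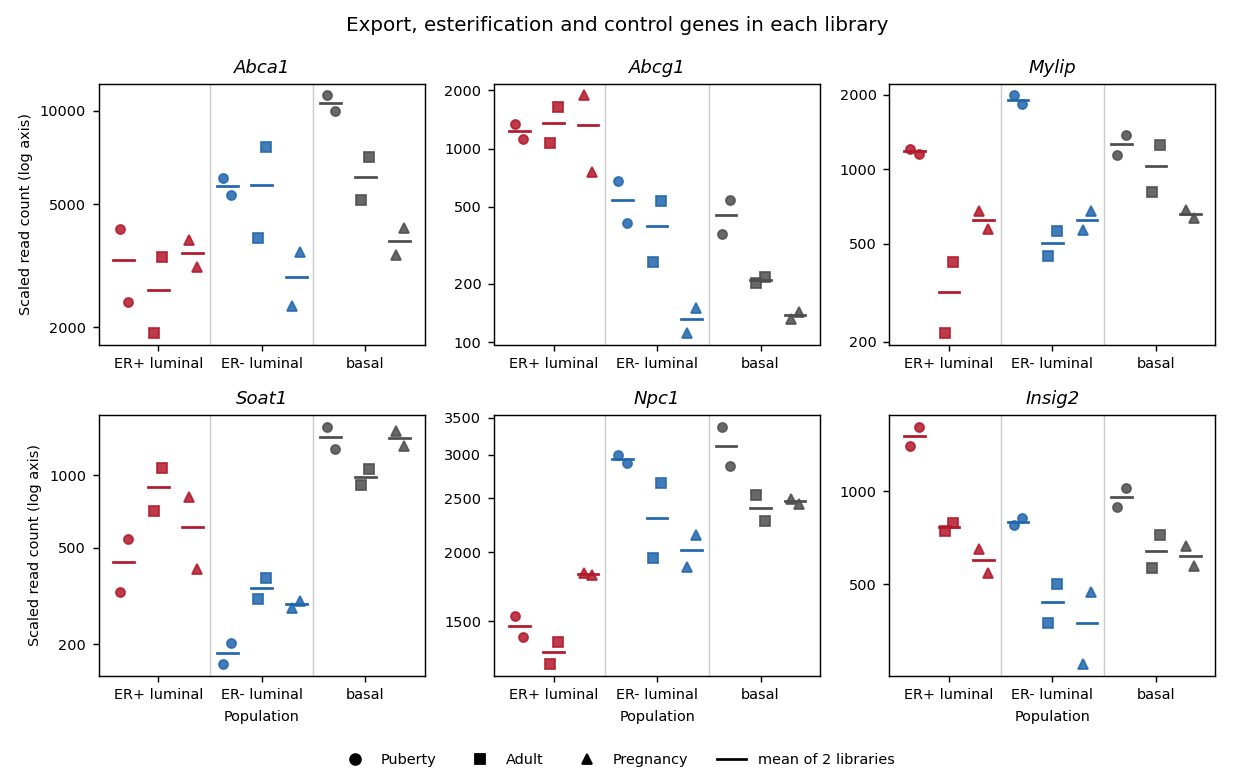
Each point is 1 library and each bar the mean of 2, as scaled read counts on log axes, by population (colour) and stage (symbol). Abcg1 is higher in all 6 ER+ libraries than in all 6 ER- libraries, Soat1 is high in basal cells, and Insig2 and Mylip are highest at puberty within each luminal population.

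Basal cells were compared with the mean of both luminal populations over the 3 stages, to ask how the contractile layer differs. Of the 31 genes 4 were higher and 11 lower in basal cells (48.4%, against 42.5% of all genes either way and 21.5% called lower), with a median of -0.23 against -0.03. With median-ratio scaling 7 were higher and 10 lower. The lower genes were mostly of the ring arm, 8 of 11, whereas none of the 7 mevalonate genes was called. Tm7sf2 (-0.94 ± 0.15, adjusted p = 0.000138), Dhcr7, the last reductase of cholesterol synthesis (-0.72 ± 0.17, adjusted p = 0.00257), Fdft1 (-0.72 ± 0.12, adjusted p = 0.000118) and the sterol isomerase Ebp (-0.71, adjusted p = 0.0026) led them. Sc5d, Msmo1, Lss and Sqle followed at -0.53 to -0.38. Tm7sf2 had 49 and 55 in puberty, 114 and 80 in adult and 80 and 93 in pregnancy basal cells, and luminal libraries ran from 86 to 207, so that the groups overlapped.

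Soat1 was 2.78-fold higher in basal cells (1.66 ± 0.15, adjusted p = 5.42e-07), at 1587 and 1279, then 907 and 1065, then 1519 and 1322. The exporters went opposite ways: Abca1 was higher (0.76 ± 0.18, adjusted p = 0.00466) and Abcg1 lower (-1.38 ± 0.21, adjusted p = 9.26e-05). Scap was lower (-0.66 ± 0.09, adjusted p = 2.18e-05), Nr1h2 was lower (-0.32 ± 0.08, adjusted p = 0.003) and Npc1 was higher (0.47 ± 0.08, adjusted p = 0.000196). Mylip was higher by 0.40 ± 0.14 (adjusted p = 0.0282), but at -0.09 (adjusted p = 0.534) with puberty and pregnancy libraries alone. Endothelial markers, 6 of 6, were higher in basal cells as well, as were 3 of 8 immune cell and 3 of 6 fibroblast markers. Of 8 adipocyte markers 3 were higher and 1 lower. Basal libraries held endothelial sums of 3553 to 10883 and luminal ones 268 to 7215, and the part of these cells was not tested.

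The pregnancy change was not shown to differ between ER- luminal and basal cells for any of the 31 genes, against 0.627% of all genes called in limma. At an unadjusted p under 0.05 there were 3, and edgeR called none. Mvd had a difference of 1.48 ± 0.60 (unadjusted p = 0.0249, adjusted p = 0.337).

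Other sterol pathway genes, a list of 22, were read beside the members. From puberty to pregnancy, 4 rose and 1 fell in ER+ cells (22.7%, against 13.1% of all genes), 4 rose and none fell in ER- cells (18.2%, against 14.8%), and 1 rose in basal cells (4.55%, against 2.07%). In ER+ cells the largest were Lipa, the lysosomal acid lipase (3.0 ± 0.54, adjusted p = 0.00386), and Scarb1, the HDL receptor (2.32 ± 0.39, adjusted p = 0.0014). Lipa stood at 2523 and 7643 in pregnancy ER+ cells. In ER- cells Scarb1 (1.34 ± 0.39, adjusted p = 0.0341), Aacs, the acetoacetyl-CoA synthetase (1.29 ± 0.36), Npc2, the lysosomal partner of Npc1 (0.91 ± 0.21), and Srebf1, the fatty acid counterpart of Srebf2 (0.76 ± 0.22), rose. None of these 4 passed without pregnancy ER- luminal replicate 2, with values of 1.30, 1.10, 0.68 and 0.65 and adjusted p of 0.159, 0.192, 0.113 and 0.212. Against adults, 7 rose and 2 fell in ER+ cells (40.9%, against 17.9% of all genes), 5 rose in ER- cells (22.7%, against 14.4%) and 2 rose in basal cells (9.09%, against 7.26%). Of the 5 in ER- cells, Cyp7b1 alone kept its call without pregnancy ER- luminal replicate 2, at 5.13. Its mean in adult ER- luminal cells was 0.0, so the size of that difference depends on the pseudocount and on 1 pregnancy library. From puberty to adulthood none rose, and 2, 1 and 1 fell in ER+, ER- and basal cells (9.09%, 4.55% and 4.55%, against 5.73%, 3.66% and 9.73%).

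Between populations, 9 of the 22 were higher and 4 lower in ER+ than in ER- cells (59.1%, against 25.5% of all genes), and 6 were higher and 8 lower in basal than in luminal cells (63.6%, against 42.5%). Vldlr, a lipoprotein receptor that Mylip removes, was higher in basal cells (2.22 ± 0.14, adjusted p = 7.91e-09) and lower in ER+ than in ER- cells (-2.05 ± 0.16, adjusted p = 3.77e-07). It also rose in pregnancy over puberty in basal cells (1.5 ± 0.28, adjusted p = 0.0105) and ER+ cells (1.73 ± 0.28, adjusted p = 0.000682). The oxysterol enzymes Cyp7b1 (4.02 ± 0.40), Ch25h (3.05 ± 0.53) and Cyp27a1 (1.86 ± 0.29) were higher in basal cells at low levels, with basal means of 165.2, 96.2 and 107.3.

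Fatty acid synthesis genes, a list of 8, were read in the same way. From puberty to pregnancy 2 rose in ER+ cells (25%, against 13.1% of all genes), 3 in ER- cells (37.5%, against 14.8%) and none in basal cells, where none had an unadjusted p under 0.05 in limma either. Fasn, fatty acid synthase, stood at 9947 and 5194 in puberty ER- luminal cells and 34822 and 43083 in pregnancy (2.43 ± 0.50, adjusted p = 0.00987). In pregnancy ER+ cells it stood at 14584 and 39475. Acly, which makes cytosolic acetyl-CoA (2.04 ± 0.40, adjusted p = 0.00619), and Acaca, acetyl-CoA carboxylase (1.81 ± 0.41, adjusted p = 0.0133), rose in ER- cells. Without pregnancy ER- luminal replicate 2 Fasn was at 2.28 (adjusted p = 0.061), Acly at 1.92 (adjusted p = 0.0525) and Acaca at 1.61 (adjusted p = 0.102), and none passed. Against adults 4 rose in each luminal population (50% in each, against 17.9% of all genes in ER+ and 14.4% in ER- cells), and none of the 4 in ER- cells passed without that library.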

How the data were processed

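The authors deposited whole-number signal values in a single table, from RNA prepared with RNeasy micro kits and Ovation Solo libraries, per the labels' protocols. The submitters' processing notes name STAR, Picard, HTSeq and GRCm38; the sources used here do not give the annotation, strand use or handling of duplicates. Totals and library-specific steps between low values fit read counts scaled to 20000000 and rounded up. Inverting this returned 99.76% to 99.95% of values, and read depths rest on it. For pregnancy ER- luminal replicate 2 the recovered reads, also used by edgeR, may overstate the separate reads. Of 46868 rows, 790 repeated an ID. The members and lists were chosen with earlier results of these data known.

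limma 3.58.1 (R 4.3.3; trend, robust) was fitted to log2(value + 1) with 1 mean per group over all 18 libraries, on genes that reached 10 in 2 or more libraries. Such fold changes understate the change of low genes. Named members were the up to 6 called genes of largest change per comparison, those with the widest range in each role and those at the edge of the threshold. The others are given as counts, and further lists by up to 4 called genes. Alternatives were a pseudocount of 10, no filter, quantile and median-ratio scaling, a replicate block and subsets of stages. Each library was also left out, and edgeR 4.0.16 was run on recovered reads. Leaving out a library outside the groups compared keeps the estimate and alters only its error. The share of alternatives that kept a call therefore overstates its stability. Group order, correlations and the further lists without pregnancy ER- luminal replicate 2 were added after seeing the data. The procedure was tested on simulated data. Positions and overlaps are from GENCODE vM21 (GRCm38), promoters from RefSeq (GRCm38.p6). Plots used matplotlib 3.10.9.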

Additional observations from a re-analysis of the deposited data

Results flagged for a closer look

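Sc5d differed between the luminal populations in its change from puberty to mid pregnancy, with a log2 difference of -1.17 for ER+ minus ER- luminal cells (± 0.27, adjusted p = 0.0335 in limma). It fell in ER+ cells, and the ER- difference did not pass. Both ER+ libraries were lower in pregnancy than at puberty, and both ER- libraries were higher.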

How the results depend on the processing

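Over 70 calls of a member in a comparison, 1732 alternative values were computed: 1520 kept direction and call, 211 kept direction but lost the call, and 1 reversed (Mylip in basal against luminal cells, -0.0907 with puberty and pregnancy libraries only). Many of these values left out a library outside the groups compared, which keeps the estimate, so the share kept overstates stability. Counts of called members moved by over 1.5 times as follows, and the cause was not tested. Pregnancy against puberty in basal cells went from 0 to 1 with a pseudocount of 10, 1 without the filter, 3 with quantile scaling, 2 with median-ratio factors and 3 with edgeR. Pregnancy against adult ER+ cells went from 9 to 5 with quantile scaling. Pregnancy against adult basal cells went from 0 to 1 with a pseudocount of 10, 1 with quantile scaling, 3 with median-ratio factors and 4 with edgeR. Adult against puberty ER- cells went from 1 to 4 with quantile scaling and 2 with median-ratio factors or edgeR. The difference of ER+ and ER- changes went from 1 to 2 with quantile scaling, median-ratio factors or edgeR.

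Across the groups as a whole, pairing by replicate number was weak. Deviations of same-numbered libraries correlated at -0.09 to 0.27 over 36 pairs of groups, over 0.1 in 1. At puberty, ER- and ER+ luminal basal marker sums were 13467 and 12236 in replicate 1, against 3057 and 880 in replicate 2. Adipocyte, endothelial and immune cell markers split the same way there, and fibroblast markers the opposite way in both. ER+ and ER- luminal markers did not split alike. With 2 libraries per group these values cannot show or exclude shared animals or batches. A replicate block called 2 members in pregnancy against adult basal cells, 2 in adult against puberty ER- cells and 2 in the difference of ER+ and ER- changes, and moved no other count by over 1.5 times.

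With each library left out (a lone library is then assumed to vary like the others), counts ran from 7 to 13 for ER+ against ER- cells and 14 to 18 for basal against luminal cells. For pregnancy against puberty they ran from 4 to 10 in ER+, 5 to 13 in ER- and 0 to 2 in basal cells. For pregnancy against adult they ran from 3 to 10, 0 to 9 and 0 to 1, and for adult against puberty from 1 to 4, 1 to 2 and 0 to 3. The difference of ER+ and ER- changes ran from 0 to 2. Pregnancy ER- luminal replicate 2 gave the 0 of 6 in pregnancy against adult ER- cells, and puberty ER- luminal replicate 2 the 5 of 12 in pregnancy against puberty. Puberty ER- luminal replicate 1 and puberty ER+ luminal replicate 2 each gave the 7 of 11. Either puberty ER+ library gave the 4 of 9.

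Under quantile scaling the median over all genes went from 0.205 to -0.109 in pregnancy against adult ER+ cells, where members then split 5 higher and 0 lower, and from -0.031 to -0.173 in basal against luminal cells. Depth limits the genes with few reads: Idi1 and Fdps had 2 reads in their lowest library, Insig1 4 and Mvd 7.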
